A study of Mus musculus with 3 samples.

Results

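The study's cell table placed 801 of its 12668 cells in a class called Macrophages, and these cells were described through everything else the table holds about them. A cell belonged to the class when the column named Cell_type called it Macrophages. A separate column, named final_celltype, called 592 of the 801 cells Microglia (73.9%) and 204 Macrophage Cluster 2 (25.5%). The class held 46 cells without tumor, 529 cells of the low grade glioma (LGG) library and 226 cells of the high grade glioma (HGG) library. Other label columns of the same table mostly named these cells microglia, so the values below give, library by library, where the labels, clusters, depth and phase scores put the class between microglia and macrophages.

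The cells were CD45-positive immune cells, enriched by positive selection after papain digestion of the right brain hemisphere of mice and sequenced on the 10x Genomics droplet platform. One library was made for each group: no tumor at a labelled age of 0 to 2 weeks, LGG at 3 to 4 weeks and HGG at 6 to 8 weeks. The labels do not say from which event these weeks are counted, how many animals entered a library, or which glioma model, strain, alleles or cell line were used. For the HGG sample the labels conflict: the title gives no tumor, but the library name and the description give HGG, and it was used as HGG. With 1 library per group, the group, the labelled age and the library itself cannot be told apart. No test between groups was made: the intervals given are 95% and cover counting error only.

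Microglia are the macrophages that live in the brain tissue itself and arise from yolk sac precursors before birth. Other macrophages either sit at the borders of the brain, in meninges, choroid plexus and around vessels, or enter from blood monocytes, as they do in gliomas. Microglia and incoming macrophages share much of their gene expression once both are in a tumor, and cell names in single-cell data therefore depend on the reference and the clustering used. F4/80 (Adgre1), lysozyme (Lyz2), complement C1q (C1qa) and apolipoprotein E (Apoe) are carried by both kinds of cell. No per-gene values were analysed here, so the class name could not be checked against these or any other markers.

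The libraries held 3544 cells without tumor, 5024 in LGG and 4100 in HGG, with 32685080, 61554429 and 61872213 UMIs (unique molecular identifiers, the counted transcripts). Median UMIs per cell over all cells were 8826.5, 9863.5 and 12907.5. Between libraries, 15 cell barcodes were shared, and 1 cell of the macrophage class carried such a barcode.

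The class was 1.298% of the no-tumor cells (0.952 to 1.73%), 10.5% of the LGG cells (9.69 to 11.4%) and 5.51% of the HGG cells (4.83 to 6.26%). The coarser macrophage layer of the table, 3894 cells, also held 845 Border associated Macrophages, 1207 Glioma associated macrophages, 959 cells named Int Mo/Mac, 81 Activated Microglia and 1 CD8 T cell. Within that layer the class was 8.90% without tumor (46 of 517), 30.2% in LGG (529 of 1754) and 13.9% in HGG (226 of 1623). The study's own hierarchy thus filed all 801 class cells with macrophages, and their part of that layer was largest in LGG. A second pair of layer columns gave the name Macrophages to these 801 cells only. The class took 1.05%, 11.8% and 5.75% of the UMIs of the no-tumor, LGG and HGG libraries.

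Label columns made by other means named most cells of the class Microglia in every library, a name that Glioma associated macrophages often carried too. The table holds a first and a second label from SingleR, a tool that names each cell by its likeness to reference profiles. The first named 46 of 46 no-tumor cells, 528 of 529 LGG cells and 224 of 226 HGG cells Microglia. Of Glioma associated macrophages, 98.1% had this name in the first SingleR label and 79.0% in the second. The first label therefore does not place the class with microglia rather than with them. In the second SingleR label the counts were 46, 511 and 214, which is 96.6% in LGG and 94.7% in HGG. The 30 remaining cells there were split into 20 named Macrophages and 10 named Monocytes. All of these labels were read from the same transcripts of the same cells, so their likeness is not a repeat measurement.

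The scANVI label, from a tool that transfers names from an annotated data set, uses the names TAM 1 and TAM 2. In published glioma atlases TAM 1 denotes macrophages derived from monocytes and TAM 2 those derived from microglia. TAM 2 was the name of 46 of 46 no-tumor cells, 521 of 529 LGG cells and 222 of 226 HGG cells of the macrophage class, 98.5% in all (97.4 to 99.2%). The microglia class was also 98.5% TAM 2 (6815 of 6918), whereas Border associated Macrophages were 7.34% TAM 2 and 92.0% TAM 1. Glioma associated macrophages were 94.4% TAM 2. By this label the border class stood apart. The TAM 2 share of the macrophage class equalled that of microglia, but most Glioma associated macrophages carried the name too. The label therefore does not place the class with microglia rather than with them. The first VHove label also gave TAM 2 to 790 of the 801 cells, but it gave that name to 42.1% of Border associated Macrophages too and so separated the classes less.

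The second VHove label was the one in which the 3 libraries parted most. It named 46 of 46 no-tumor cells Microglia, 406 of 529 LGG cells (76.7%, 72.9 to 80.3%) and 204 of 226 HGG cells (90.3%, 85.6 to 93.8%). Most other cells were named BAM, the name this column gave to 90.5%, 94.8% and 98.1% of the study's Border associated Macrophages in the no-tumor, LGG and HGG libraries. BAM was the name of 0 of 46 class cells without tumor, which allows a share of up to 6.52%, of 121 LGG cells (22.9%, 19.4 to 26.7%) and of 17 HGG cells (7.52%, 4.44 to 11.8%). Among cells of the microglia class the BAM shares were 0.209%, 3.69% and 5.46%, and among Glioma associated macrophages they were 3.48%, 17.2% and 20.6%. Activated Microglia, a class with no cells in the no-tumor library, had BAM shares of 13.7% in LGG (62 of 453) and 2.59% in HGG (9 of 348). The LGG share was thus above the HGG share in the macrophage class and in Activated Microglia, and below it in microglia and Glioma associated macrophages. These differences between libraries were not tested.

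The merged label, another summary name in the table, had the lowest counts of Microglia names among the 4 labels compared in the no-tumor and HGG libraries, and in LGG a count 1 above that of the second VHove label. It named 35 of 46 no-tumor cells Microglia (76.1%, 61.2 to 87.4%), 407 of 529 LGG cells (76.9%, 73.1 to 80.5%) and 150 of 226 HGG cells (66.4%, 59.8 to 72.5%). The column final_celltype had the same Microglia count in each library, so these columns should not be read as independent. In the merged label a macrophage name went to 11 (23.9%), 120 (22.7%) and 75 cells (33.2%). The interval of the macrophage name without tumor (12.6 to 38.8%) overlapped both others, while that of LGG (19.2 to 26.5%) lay below that of HGG (27.1 to 39.7%). The order of the libraries in the Microglia name was different within 1 limited range of depth. Among class cells with 5780.2 to 12404.5 UMIs the shares were 66.7% without tumor (16 of 24), 74.9% in LGG (182 of 243) and 79.4% in HGG (54 of 68), with overlapping intervals. The part of depth in this name was not tested. Glioma associated macrophages carried a macrophage name in this column in 67.0%, 71.4% and 73.1% of cells, and the microglia class in 8.79%, 7.86% and 15.7%. The class thus lay between both in each library, nearer to microglia.

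Across all libraries, the share named Microglia by the first SingleR, second SingleR, second VHove and merged labels could be set against that in the other classes. In the first SingleR label it was 99.7% of microglia, 98.1% of Glioma associated macrophages and 14.0% of Border associated Macrophages. In the merged label it was 86.1%, 22.7% and 0% of the same 3 classes, where 0 of 845 cells leaves room for up to 0.355%. The first SingleR label therefore gave nearly all Glioma associated macrophages the same name as microglia, while the merged label did not.

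**Figure D1:**
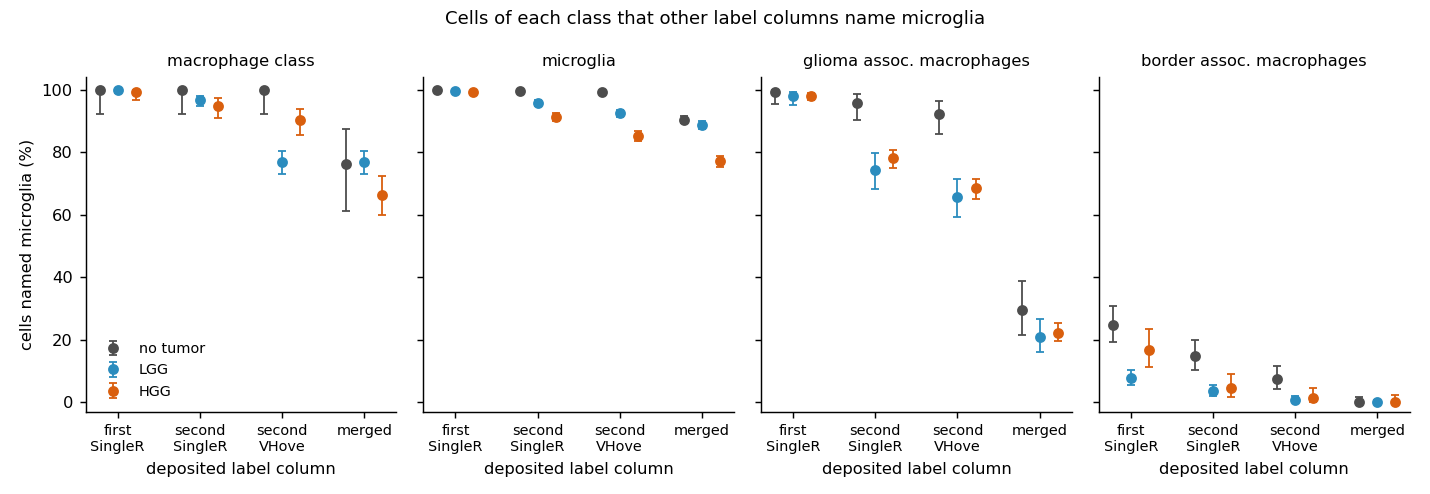
Share of cells (%) that 4 deposited label columns name Microglia, for the macrophage class, microglia, Glioma associated macrophages and Border associated Macrophages. Points are the 3 libraries and bars the 95% exact interval for counting error; the macrophage class stays near microglia in both SingleR labels, its LGG cells drop to 76.7% in the second VHove label, and Border associated Macrophages reach 0% in the merged label.

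All 4 of these labels named 525 of the 801 cells Microglia (65.5%), with 35 of 46 without tumor (76.1%), 346 of 529 in LGG (65.4%) and 144 of 226 in HGG (63.7%). A further 195 cells had the name in 3 labels, 54 in 2 labels, 24 in 1 label and 3 cells in none. In the microglia class all 4 labels gave the name to 85.9%, in Glioma associated macrophages to 22.5% and in Border associated Macrophages to 0 of 845 cells. Of the border class, 85.2% had no microglia name in any of the 4 labels. The merged label is 1 of the 4, so this count is not independent of it.

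The cells that lacked a full set of microglia names differed in depth between the macrophage class and microglia. In the macrophage class, cells with 3 microglia names had a median of 14034 UMIs and those with all 4 had 11390. In the microglia class the order was the opposite, with 3776.5 UMIs at 3 names and 9509 at 4. Disagreement between labels fell on shallow cells in the microglia class, whereas in the macrophage class only the 24 cells with 1 name and the 3 with none were shallow, at medians of 3625 and 2604 UMIs. This was not particular to the class. Glioma associated macrophages had medians of 24011.5 UMIs at 4 names, 22692 at 3 and 20556.5 at 2. Their cells with 1 name or none were shallow, at 3918.5 and 2757.5 UMIs.

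The labels that pointed toward macrophages overlapped in part. A macrophage name in the merged label went to 206 of the 801 class cells (25.7%). Of the 138 cells named BAM by the second VHove label, the merged label gave 69 a macrophage name (50.0%) and 66 the name Microglia. In LGG the split was 59 to 60 and in HGG 10 to 6. Of the 656 cells named Microglia by the second VHove label, 131 had a macrophage name in the merged label (20.0%), 60 of them in LGG, 60 in HGG and 11 without tumor. A macrophage name was thus more frequent among BAM-named cells than among Microglia-named cells, while most cells with one were not named BAM.

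The merged label followed the clusters. Of the 22 deposited clusterings, the one at resolution 0.4 fitted it best, and whether a class cell was named Microglia or not was given by its cluster there for all but 1 of the 801 cells. In the second VHove label, by contrast, 144 of the 801 cells departed from the majority of their cluster at that resolution in being named Microglia or not. Within the class the merged label thus followed the cluster, and the second VHove label varied inside clusters.

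The class as a whole lies within a single cluster. At resolution 1.5 all 801 cells lay in cluster 6, which held 846 cells, and the other 45 were named Activated Microglia. Of those 45 cells, 38 came from LGG, 7 from HGG and 0 from the no-tumor library, and the first SingleR label named all 45 Microglia. The second VHove label named 27 of them BAM and 18 Microglia. Because the class is most of a cluster of the same gene values, its separation from other cells in the clusterings is a description.

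At resolutions 0.1 to 0.4 and at 0.6 most of the class lay in clusters led by microglia. At resolution 0.1, 795 of 801 cells lay in clusters where microglia were the largest class, 773 of them in 1 cluster of 8537 cells with 6005 microglia, 972 Glioma associated macrophages and 753 Activated Microglia. That cluster thus held most of the 1207 Glioma associated macrophages too, and the main cluster at 0.2 held 964 of them. These clusters therefore do not place the class with microglia rather than with Glioma associated macrophages. At 0.4 the count in microglia clusters was 615, while 176 cells formed a cluster of their own with 4 other cells. The largest of those microglia clusters held 579 class cells and 263 Glioma associated macrophages. At 0.5 and 0.7 most of the class had its own cluster, with 487 and 520 cells, but at 0.6, between them, 698 cells were back in microglia clusters. From 0.8 upward the class was separate, with 787 cells in a cluster of 867 at 0.8.

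At resolutions 0.5 and 0.7 the no-tumor cells of the class stayed with microglia more than the tumor cells did. At 0.5, 14 of 46 no-tumor cells (30.4%, 17.7 to 45.8%) lay in clusters led by the class, against 63.9% in LGG (59.6 to 68.0%) and 59.7% in HGG (53.0 to 66.2%). At 0.7 the shares were 32.6% (19.5 to 48.0%), 68.1% and 64.2%. In the no-tumor library the microglia clusters still held 30 of 46 cells at 0.5 and 29 at 0.7. At 0.4 and 0.6 the order was different, with shares of 21.7% without tumor, 18.7% in LGG and 29.6% in HGG at 0.4 and of 17.4%, 8.51% and 13.3% at 0.6. No order of the libraries held at every resolution below 0.8.

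**Figure D2:**
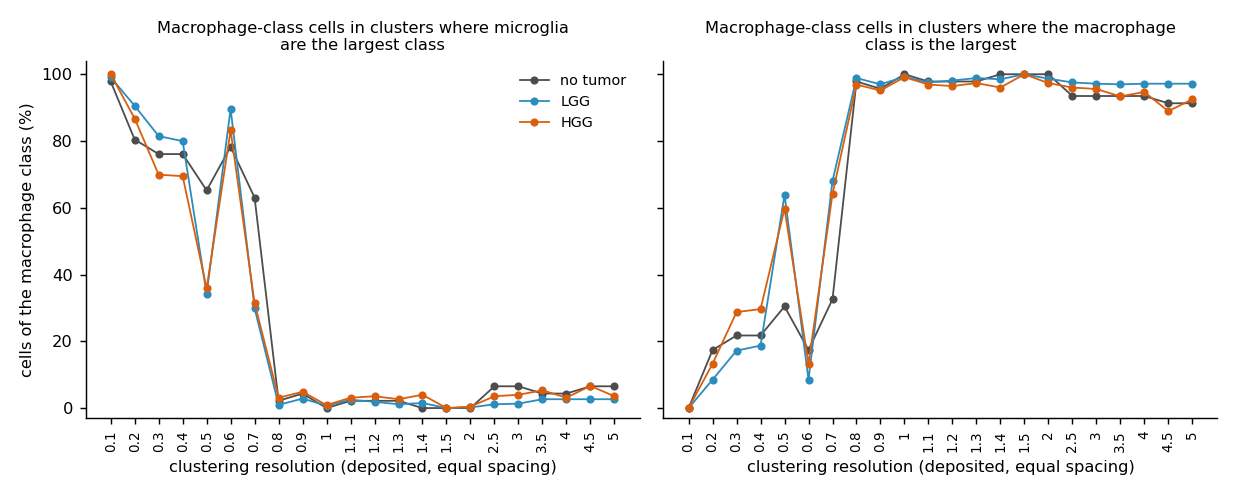
Share of macrophage-class cells (%) in clusters where microglia (left) or the macrophage class itself (right) is the largest class, against the 22 deposited clustering resolutions, drawn at equal spacing. Lines are the 3 libraries. The cells lie in clusters led by microglia at 0.1, swing between 0.5 and 0.7, where the no-tumor line departs from the other 2, and lie apart from 0.8 on.

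At the finest resolution, 5, the class fell into 12 clusters, 3 of which held at least 5% of it. The largest, cluster 3, had 451 class cells: 26 of 46 without tumor (56.5%), 316 in LGG (59.7%) and 109 in HGG (48.2%). The merged label named 96.2% of them Microglia and the second VHove label named 5.32% BAM. By both names this was the portion of the class nearest to microglia in the tumor libraries, with the merged name Microglia in 95.9% of its LGG cells and 97.2% of its HGG cells.

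Cluster 26 had 185 class cells, 14 without tumor (30.4%), 98 in LGG (18.5%) and 73 in HGG (32.3%). The merged label gave 89.7% of them a macrophage name, 166 in number, while the second SingleR label still named 89.2% Microglia. BAM was the name of 0 of the 14 cells without tumor (a share of up to 21.4% is allowed), of 44 of the 98 LGG cells (44.9%, 34.8 to 55.3%) and of 9 of the 73 HGG cells (12.3%, 5.80 to 22.1%). The macrophage name of the merged label in HGG came largely from this cluster, with 67 of 75 such cells.

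Cluster 32 had 129 class cells, 2 without tumor (4.35%, 0.531 to 14.8%), 100 in LGG (18.9%, 15.7 to 22.5%) and 27 in HGG (11.9%, 8.02 to 16.9%). Pooled over the libraries these were the deepest cells, at a median of 21113 UMIs against 10746 in cluster 3 and 11401 in cluster 26. Their pooled median mitochondrial share was 5.59%. They were deepest in LGG (20323 UMIs) and in HGG (25123 UMIs). The 2 no-tumor cells, at a median of 5195.5 UMIs, were below the no-tumor cells of cluster 3 (5587 UMIs). The second VHove label named 52 of the 100 LGG cells and 6 of the 27 HGG cells (22.2%) BAM, whereas the merged label named 82.9% of the cluster's class cells Microglia. The other 36 class cells were spread over 9 clusters. In both tumor libraries, then, the BAM-named cells were mainly in clusters 26 and 32, and in both of those clusters the LGG share was above the HGG share, with overlapping intervals in cluster 32 (41.8 to 62.1% and 8.62 to 42.3%).

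In depth the class lay below microglia without tumor and above microglia in both tumor libraries. Median UMIs per cell of the class were 6289.5 without tumor (interval of the median 5493 to 8306), 11599 in LGG (11122 to 12172) and 14578 in HGG (13075 to 15814). Microglia had medians of 8967 (8825 to 9114), 8646.5 (8403 to 8841) and 9072 (8670 to 9427). The class was therefore at 0.701 times the microglia median without tumor, and at 1.34 and 1.61 times in LGG and HGG. The intervals of the class and of microglia did not overlap in any of the 3 libraries, while the ranges of single cells overlapped widely (class cells from 1253 to 21351 without tumor, 669 to 62995 in LGG and 590 to 50745 in HGG).

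Detected genes and mitochondrial share moved the same way. The class had 2328, 2806 and 3225 genes per cell in the no-tumor, LGG and HGG libraries, and microglia 2884, 2525 and 2798. The mitochondrial share was 1.46%, 3.64% and 4.21% in the class and 2.25%, 3.03% and 3.82% in microglia, with no overlap of the median's intervals in any library. Activated Microglia, which share cluster 6 with the class, were also above microglia in both tumor libraries, with median UMIs of 9535 in LGG and 15941 in HGG and mitochondrial shares of 3.99% and 4.65%. Against Glioma associated macrophages the order of the medians differed between libraries. Their median UMIs were 9947, 10216 and 25204.5, above the class without tumor and in HGG and below it in LGG. In LGG their interval (9101 to 11700) overlapped that of the class (11122 to 12172), so the order there is uncertain. Border associated Macrophages, at 4655, 9328 and 7163.5, had medians below the class in each library. Without tumor their interval (3761 to 6064) overlapped that of the class (5493 to 8306).

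**Figure D3:**
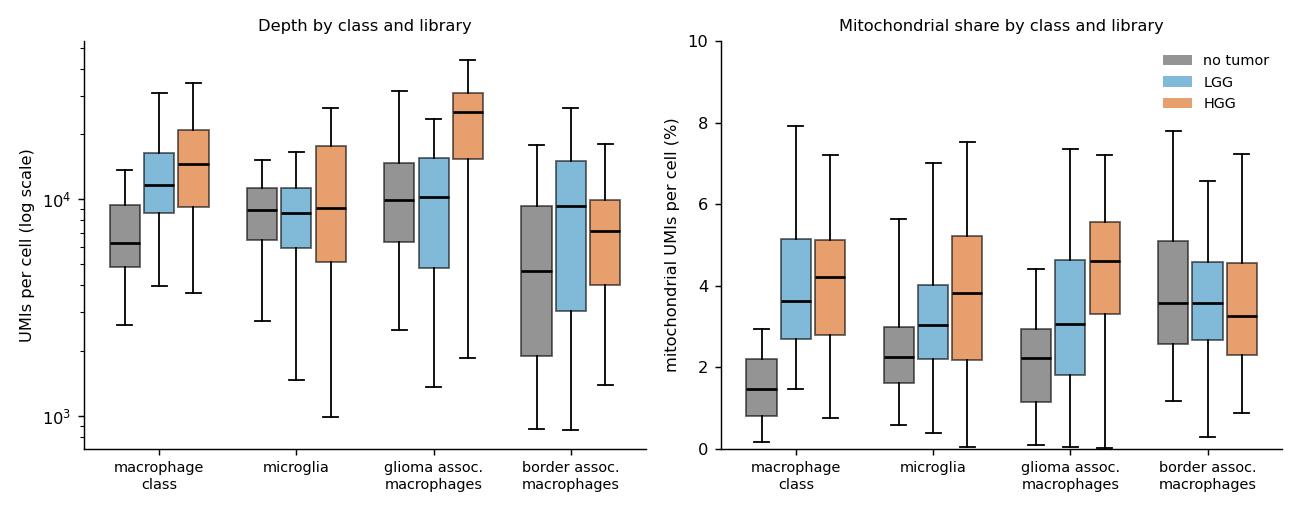
UMIs per cell (left, log scale) and mitochondrial UMIs per cell in % (right) for the macrophage class and 3 other classes in each library. Boxes span the quartiles with the median as a line, and whiskers reach the 5th and 95th percentiles of cells; the class lies below microglia without tumor and above it in LGG and HGG on both measures.

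The BAM name moved with depth inside the LGG library. LGG class cells named BAM had a median of 16411 UMIs and a mitochondrial share of 5.09%, against 11221 UMIs and 3.35% for those named Microglia. In HGG the 17 BAM cells had 11497 UMIs and the Microglia-named cells 14792. When the class was divided at its own UMI quartiles (590 to 8361, up to 11747, up to 17296 and up to 62995), the LGG BAM shares from shallow to deep were 20.7% (25 of 121), 12.5% (19 of 152), 15.0% (21 of 140) and 48.3% (56 of 116). The deepest quartile stood out: its interval, 38.9 to 57.7%, lay above those of the other 3.

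In HGG the same quartiles gave 12.2% (6 of 49), 7.5% (3 of 40), 1.85% (1 of 54) and 8.43% (7 of 83). The no-tumor cells, with 0 of 31, 0 of 8, 0 of 6 and 0 of 1, cannot show a share of this size at depth, since 1 no-tumor cell lay in the deepest quartile. In the microglia class the BAM name was instead most frequent in the shallowest of these ranges, at 6.15% in LGG and 9.16% in HGG, and was at 0 of 84 LGG cells (up to 3.57% is allowed) and at 0.391% in HGG in the deepest.

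The LGG and HGG shares were also compared within limits on depth and mitochondrial share. Within 5780.2 to 12404.5 UMIs, from the highest 10th percentile to the lowest 90th percentile of the class in the 3 libraries, BAM was the name of 30 of 243 LGG cells (12.3%, 8.49 to 17.2%) and of 4 of 68 HGG cells (5.88%, 1.63 to 14.4%), and these intervals overlap, which the intervals over all depths do not, though fewer HGG cells (68 of 226) remain in that range. With at most 5% mitochondrial UMIs the LGG share was 14.8% (11.4 to 18.8%) and the HGG share 6.02% (2.93 to 10.8%), with intervals apart. Doublet calls were given to 2 of 46, 3 of 529 and 1 of 226 class cells in the no-tumor, LGG and HGG libraries. Over all libraries this was 0.749% of the class against 3.47% of all cells, and without tumor 4.35% against 2.85%. Without these cells the HGG share was 7.56%. The part of depth and of mitochondrial share in the BAM name was not tested.

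**Figure D4:**
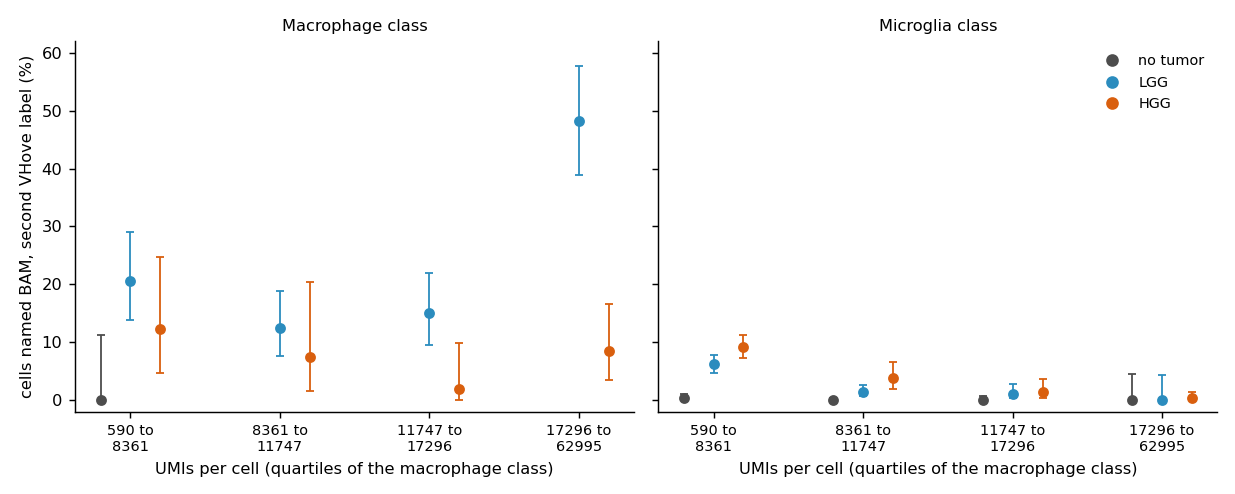
Share of cells (%) named BAM in the second VHove label by UMI range, with the quartiles of the macrophage class as ranges, for the macrophage class (left) and microglia (right). Points are libraries with 95% exact intervals, drawn where a range holds at least 20 cells; the LGG class cells reach 48.3% in the deepest range, where microglia are at or near 0.

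Phase scores of the class were low, as were those of microglia and of both other macrophage classes compared. The deposited S and G2M scores summarise genes of DNA replication and of mitosis, and in this table a cell was called G1 when both scores were below 0, in 12668 of 12668 cells. Median S scores of the class were -0.0213 without tumor, -0.0148 in LGG and -0.0130 in HGG, against -0.0270, -0.0180 and -0.0204 in microglia. Median G2M scores were -0.0480, -0.0464 and -0.0490 in the class and -0.0562, -0.0463 and -0.0467 in microglia. All 12 medians were below 0. Median S scores were -0.0158, -0.00930 and -0.0195 in Glioma associated macrophages and -0.0231, -0.0210 and -0.0180 in Border associated Macrophages. By medians alone, both of these classes were nearer to the macrophage class in S score than microglia were without tumor and in HGG. In LGG microglia were nearest, so the S score did not place the class with microglia. Without tumor the interval of the class median (-0.0324 to -0.0106) covered the medians of microglia and of both these classes. In HGG the intervals of microglia (-0.0219 to -0.0188) and Glioma associated macrophages (-0.0221 to -0.0174) overlapped. In LGG the interval of Glioma associated macrophages (-0.0169 to -0.00343) covered the class median. The order of nearness is thus uncertain in each library.

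An S or G2M call was given to 18 of 46 class cells without tumor (39.1%, 25.1 to 54.6%), 180 of 529 in LGG (34.0%, 29.99 to 38.2%) and 80 of 226 in HGG (35.4%, 29.2 to 42.0%). Microglia had 28.4%, 36.6% and 33.5%, so the class was above microglia in 2 libraries and below in LGG, with overlapping intervals in each library. The calls rest on small scores: of the 235 class cells called S, 200 had an S score of at most 0.05 and 11 a score above 0.1, and of the 43 called G2M, 37 and 2. Either score was above 0.1 in 2 of 46, 10 of 529 and 1 of 226 class cells, 1.62% in all, against 1.33% of microglia, 4.56% of Glioma associated macrophages, 11 of 845 Border associated Macrophages and 38.1% of Int Mo/Mac cells. The phase calls alone are no measure of cycling, and at a score above 0.1 the class lay far below the Int Mo/Mac class, as did microglia and Border associated Macrophages, so that this share did not place it between them.

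The G2M call alone was rare in the HGG class cells, at 4 of 226 (1.77%, 0.484 to 4.47%), with 35 of 529 in LGG (6.62%, 4.65 to 9.08%) and 4 of 46 without tumor (8.70%, 2.42 to 20.8%). Microglia were at 4.10%, 7.27% and 6.87% and Border associated Macrophages at 14.3%, 17.9% and 22.4% in the no-tumor, LGG and HGG libraries. The HGG interval of the class lay below that of HGG microglia (5.80 to 8.08%), at a median depth above theirs, and below that of the LGG class cells. Glioma associated macrophages were at 5.22%, 8.82% and 5.85%, nearer to the class than microglia without tumor and in HGG and farther in LGG. The intervals of Glioma associated macrophages and of microglia overlapped in each library, so this order is uncertain. Without tumor the interval of the class, from 4 of 46 cells, also covered the share of the border class, while in LGG and HGG it lay below the intervals of the border class (14.5 to 21.7% and 16.2 to 29.8%).

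**Figure D5:**
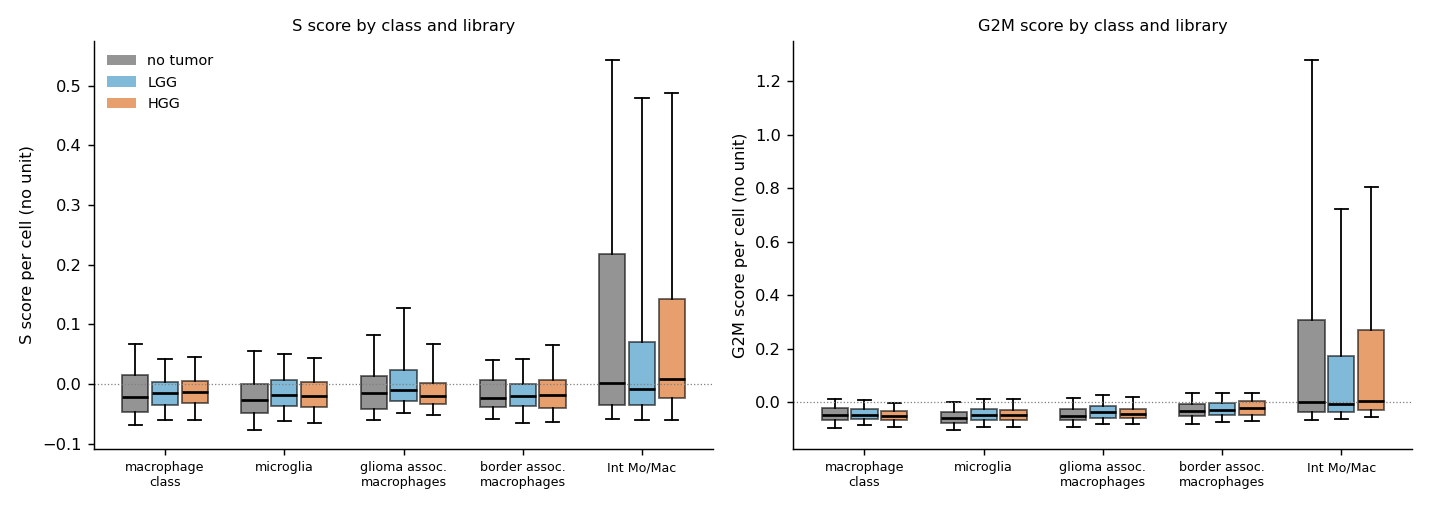
S score (left) and G2M score (right) per cell, without unit, for 5 classes in each library. Boxes span the quartiles with the median as a line, whiskers reach the 5th and 95th percentiles of cells and the dotted line marks 0; the medians of the macrophage class, microglia and both other macrophage classes lie below 0, while upper quartiles and whiskers of Int Mo/Mac reach far above it.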

How the data were processed

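Droplet libraries of 3 samples were processed with Cell Ranger 3.0.2 on mm10 (per the labels' protocols); the submitters' processing notes also name Seurat 4. What was analysed is 1 table with a line for each of 12668 cells. Scripts used 59 of its 64 columns and left 5 unused. The count of UMIs and the count of detected genes in each cell were deposited by the authors without normalization, per the file headers. The percent of mitochondrial and of ribosomal UMIs was deposited by the authors, with the gene patterns not stated. The S and G2M score and the embedding coordinates were deposited by the authors, as were labels, doublet calls and clusters at 22 resolutions. Cells had at least 501 UMIs, 201 genes and at most 9.97% mitochondrial UMIs, and the limits the authors set were not found in the labels.

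Each cell took its group from its library name. Shares carry exact Clopper-Pearson 95% intervals, medians carry order-statistic 95% intervals from the binomial distribution, and a share of 0 is given with the limit of 3 counts; both cover counting error only. With 1 library per group no test was run. The comparison classes were Microglia, Glioma associated macrophages and Border associated Macrophages. Clusters and names holding at least 5% of the class were named. The 4 labels compared in depth, the class and the lists were chosen with earlier results of these data known. No gene is reported, as no per-gene values were analysed here. A cluster's majority is its most frequent class or name. Alternatives left out doublet calls, cells under 1000 UMIs, cells over 5% mitochondrial UMIs, the top 5% of cells by UMIs, or cells outside the UMI range from the highest 10th to the lowest 90th percentile of the class over the libraries, or defined the class by its cluster. Python 3.11.15 with pandas 2.3.3, numpy 2.4.6, scipy 1.17.1 and matplotlib 3.10.9 was used.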

Additional observations from a re-analysis of the deposited data

Results flagged for a closer look

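The macrophage class and microglia differed in depth in opposite directions in the no-tumor library and in both tumor libraries. In median UMIs per cell, the class minus microglia was -2677.5 without tumor, 2952.5 in LGG and 5506 in HGG. In median genes per cell the difference was -556, 281 and 427. In median mitochondrial share it was -0.795 percentage points without tumor, 0.609 in LGG and 0.392 in HGG. The difference between the libraries was not tested, as each group has 1 library, and the 3 measures come from the same cells. The no-tumor value rests on 46 class cells.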

How the results depend on the processing

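Of 144 recomputed values (24 results under 6 alternatives), 129 stayed within the counting interval of the reported value and 15 moved outside it. Leaving out doublet calls, cells under 1000 UMIs or the top 5% of cells by UMIs moved none of the 24. With at most 5% mitochondrial UMIs, 5 LGG values moved: the class share to 9.41%, Microglia in the first SingleR label to 100%, Microglia and BAM in the second VHove label to 85.2% and 14.8%, and median UMIs to 11073. Within the common range of 5780.2 to 12404.5 UMIs, 4 LGG values moved: Microglia in the second SingleR label to 98.8%, Microglia and BAM in the second VHove label to 87.7% and 12.3%, and median UMIs to 9624. In the same range 5 HGG values moved: the class share to 6.42%, Microglia to 100% in the first SingleR, 94.1% in the second VHove and 79.4% in the merged label, and median UMIs to 9264.5. HGG thereby went from the lowest to the highest of the 3 libraries in the merged label. Median UMIs move there by construction; for the others the cause was not tested. Taking the whole cluster as the class, an alternative chosen after seeing the data, moved Microglia in the merged label in LGG to 71.8%. Class minus microglia in median UMIs kept its sign in each library under each alternative, at -1527.5, 660 and 989.5 (no tumor, LGG, HGG) in the common range. The 46 no-tumor cells limit every no-tumor share: a share of 0 there allows up to 6.52%.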

Other observations

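The deposited embeddings gave a further placement of the class. For each class cell, the nearest cell outside the class was named Microglia in 89.1% of no-tumor, 68.2% of LGG and 61.5% of HGG cells in PHATE, in 56.5%, 62.2% and 56.2% in tSNE, and in 60.9%, 50.5% and 55.3% in UMAP. Over all libraries the shares were 67.5% in PHATE, 60.2% in tSNE and 52.4% in UMAP, and microglia were 58.3% of the cells outside the class. Microglia were 2877 of 3544 cells without tumor, 2062 of 5024 in LGG and 1979 of 4100 in HGG. The pooled level is therefore no measure for the shares of single libraries. Glioma associated macrophages, 10.2% of the cells outside the class, were nearest for 34.2% of the class in UMAP, 11.7% in PHATE and 6.99% in tSNE. Activated Microglia, 6.75% of the cells outside, were nearest for 11.6%, 16.6% and 20.8% in the same order. The embeddings therefore differed in which class lay closest after microglia. Of the 30 nearest cells, 76.5% were of the class in tSNE, 49.0% in UMAP and 28.3% in PHATE. Distances in such embeddings are distorted, and these shares are a description.

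The deposited ribosomal share was lower in the class than in microglia in each library, at medians of 0.373%, 0.323% and 0.328% (no tumor, LGG, HGG) against 0.380%, 0.351% and 0.341%, and Glioma associated macrophages were higher than both, at 0.438%, 0.451% and 0.397%. The intervals of the class and microglia medians overlapped without tumor and in HGG. The genes behind this share are not stated, and its highest value in the table is 1.85%.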
